A study of Glycine max with 4 samples.

Results

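The transcripts described here are those whose response to salt and melatonin together could be set against their responses to each agent alone. RNA-seq was carried out on leaves of SuiNong 28 soybean seedlings, 3 weeks old by the labels, grown at 25 °C with 16 h of light and 8 h of dark. The conditions sequenced were 1% NaCl with 100 µM melatonin (NaCl+Mt), 1% NaCl (NaCl), 100 µM melatonin (Mt) and water (H2O). Each condition had 1 library, so no difference could be set against the spread between replicates and no p-value is given. Of 55787 transcript models, 43961 had 20 or more reads in at least 1 library and were kept, and they belonged to 35148 of 46367 loci.

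For each transcript the effect of melatonin with salt, log2(NaCl+Mt over NaCl), was reduced by the effect of melatonin without salt, log2(Mt over H2O). The result is called the departure. It is 0 where the log2 effects of salt and melatonin simply add up. A departure of 1 means that NaCl+Mt lay 2-fold above the level that the single effects add up to, and a departure of -1 that it lay 2-fold below. Levels are given in RPKM (read counts scaled to transcript length and to the reads counted in the library), and 0.1 was added before logarithms were taken, which understates the fold changes of weakly expressed genes. Errors are standard errors (SE) from the counting of reads, and they hold neither the variation between plants nor that between library preparations.

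Salt lowers the water potential around the root and brings sodium and chloride into the leaf, and plants answer with dehydration-responsive genes, proline synthesis, surface wax and a slowing of growth. Melatonin is an indoleamine made from tryptophan in plants as in animals, and acetylserotonin methyltransferase (ASMT) carries out its last step. Photosynthesis, sugar metabolism and cell division were the processes followed in the study, and the departure asks whether melatonin acted on them in the same way in salted and unsalted seedlings. The melatonin stock was kept in ethanol, and no ethanol control is described for these libraries, so that melatonin and its solvent cannot be told apart. The duration of treatment and the number of plants in each library were not given in the sources used here. In whole leaves, fewer cells of a type and less RNA in each cell cannot be told apart either.

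The libraries held 36945028 counted reads in NaCl+Mt, 28868062 in NaCl, 23479688 in Mt and 22908979 in H2O. A floor of 3 reads corresponded to 0.0812 RPKM in NaCl+Mt and 0.131 RPKM in H2O for a transcript of 1 kb. The leaf gene rbcS, the small subunit of Rubisco, was abundant in every library, with between 1300 and 6992 RPKM. Other photosynthesis loci of the annotation varied. The light reaction list had a median of 53.1 RPKM over the libraries, but some of its loci were weak. The locus listed as PsaA, Glyma04g22110, a model of only 390 bases, had 1.18 to 10.9 RPKM. Melatonin alone stood furthest from the rest. Of the transcripts kept, 20.6% were higher in Mt than in H2O by 2-fold or more and 13.4% were lower. Melatonin under salt did less, with 11.3% higher and 4.84% lower in NaCl+Mt than in NaCl. Salt alone left 7.55% higher and 12.4% lower than water, and both agents together 5.99% and 4.11%, the lowest share of the 6 possible pairs. Each departure rests on all 4 libraries and cannot be computed without the Mt library, so the part of that library in the results was not tested.

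The combined treatment lay within 2-fold of water for 89.9% of the transcripts, and for 65.0% of the 5770 that differed from water by 2-fold or more in both single treatments. A departure of 1 or more was found for 8686 transcripts, 19.8% of those kept, and a departure of -1 or less for 9953, 22.6%. Departures of 2 or more numbered 3832 (8.72%) and departures of -2 or less 5086 (11.6%). The median was 0.013, the quartiles were -0.86 and 0.77, and the values spanned -11.97 to 10.73 (SD of 1.90 across transcripts). In 15056 transcripts, 34.2%, the departure lay within 0.5 of 0. Of the 18639 departures of at least 1 in size, 97.9% exceeded 2 counting SE.

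**Figure D1:**
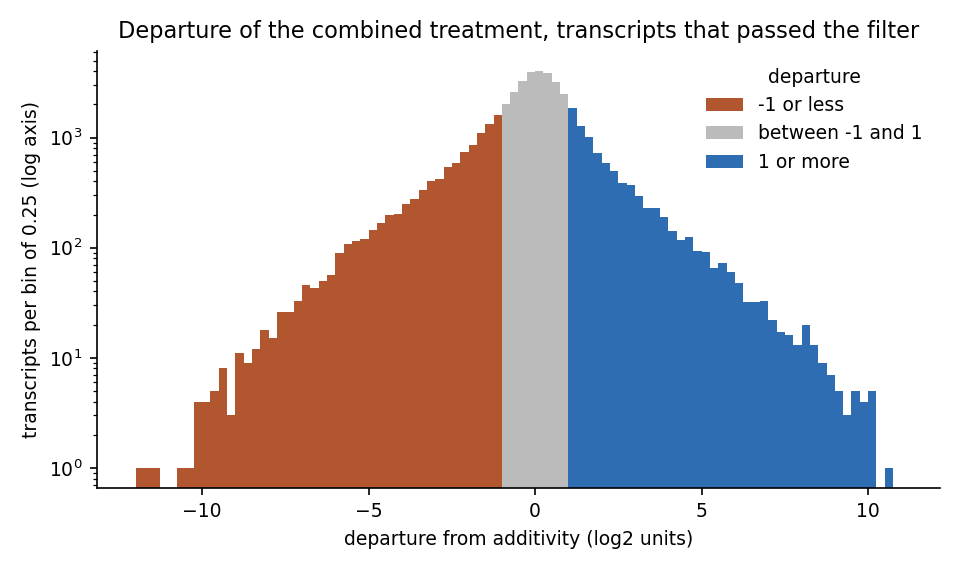
Number of transcripts (vertical axis, logarithmic) by departure in log2 units (horizontal axis, bins of 0.25), with departures of -1 or less, between -1 and 1, and 1 or more in different colours. The 43961 transcripts centre on a median of 0.013 and have a longer tail of negative values, reaching -11.97, than of positive values, reaching 10.73.

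Which side was the larger depended on expression. Among the 3515 transcripts with a mean below 1 RPKM over the libraries, 20.6% had a departure of 1 or more and 52.3% one of -1 or less. Among the 5469 with a mean of 30 to 100 RPKM the order was turned, with 23.6% and 12.5%. When 20 or more reads were asked for in all 4 libraries, a filter chosen after the data were seen, positive departures (6672) outnumbered negative ones (5973) among 36389 transcripts. The excess of negative values thus lay among weakly expressed transcripts, many of which passed the filter in the Mt library only. Of 2288 such transcripts, 2095 had a departure of -1 or less, which a transcript seen only in Mt must tend to have, so no weight can be put on their direction. The 20 chromosomes of the locus names differed little, with 17.3% to 22.9% of transcripts at 1 or more and 20.6% to 24.7% at -1 or less.

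In transcripts with a positive departure, the median level was below water in each single treatment and near water in the combination. Because the departure sets NaCl+Mt and H2O against NaCl and Mt, choosing on its sign favours such an order of levels. The medians below therefore describe the chosen transcripts and are no separate evidence. For the 8686 transcripts at 1 or more, the median log2 difference from H2O was -0.17 in NaCl+Mt, -0.91 in NaCl and -1.18 in Mt. Their median effect of melatonin was 0.70 with salt and -1.18 without salt. For the 9953 transcripts at -1 or less, the median log2 difference from H2O was 0.23 in NaCl+Mt, 0.51 in NaCl and 1.86 in Mt, and melatonin changed them by a median of -0.34 with salt and 1.86 without it. NaCl+Mt lay within 2-fold of H2O for 87.0% of the transcripts with a positive departure and for 77.2% of those with a negative departure, against 89.9% of all transcripts kept. The combination was therefore near water no more often in these transcripts than in the rest.

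**Figure D2:**
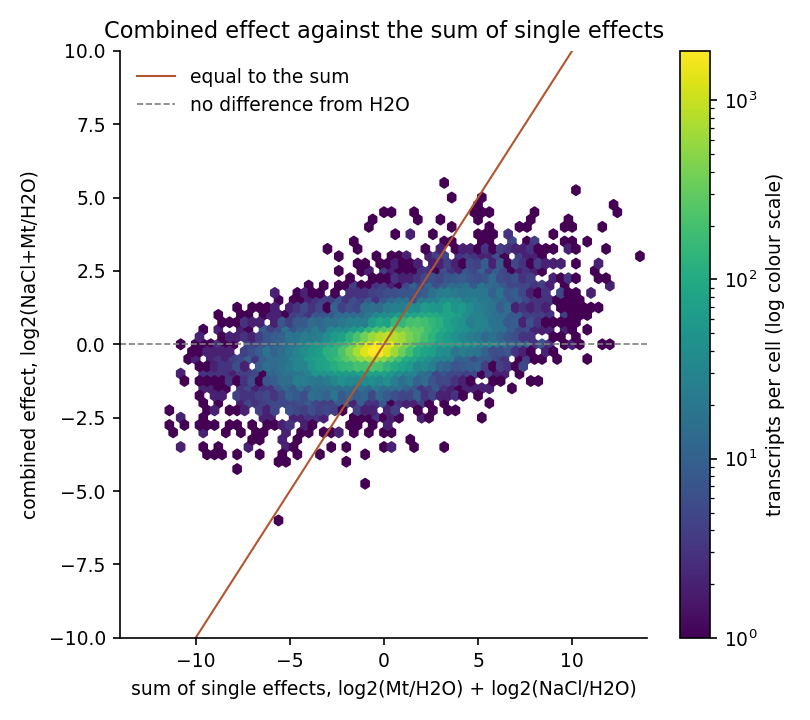
Log2 of NaCl+Mt over H2O (vertical axis) against the sum of log2(Mt over H2O) and log2(NaCl over H2O) (horizontal axis) for the 43961 transcripts, with the number per cell as a logarithmic colour scale. The solid line marks additivity and the dashed line equality with H2O, and the transcripts spread along a course flatter than the solid line, although both axes share the H2O library, which by itself ties them together.

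The 4 levels behind each departure fell into a few shapes. A library counted as standing alone when it lay at least 2-fold, on the same side, from the other 3, and these lay within 2-fold of each other. Among departures of 1 or more, NaCl and Mt were both at least 2-fold below NaCl+Mt and H2O in 1289 transcripts, whose median departure was 4.42. Mt alone was low in 1234 and NaCl alone in 577, whereas H2O alone was high in 177 and NaCl+Mt alone in 42. Among departures of -1 or less, Mt alone was high in 3065, NaCl and Mt were both high in 589 (median departure -4.91), H2O alone was low in 250, NaCl alone was high in 169 and NaCl+Mt alone was low in 102. The remaining 5367 and 5778 transcripts had less clear-cut shapes. Of the 3065 with Mt alone high, 1095 had 20 reads in the Mt library only, so the filter itself favoured this shape. With 20 or more reads in all 4 libraries, again a filter chosen after the data were seen, Mt alone was high in 1608 of 5973 and both single treatments in 213, whereas on the positive side Mt alone was low in 998 of 6672 and both single treatments in 785. By its construction the departure sets NaCl+Mt and H2O against NaCl and Mt, so that the side on which these libraries stand follows from its sign. What the sign does not fix is which library carried it, and the combined library stood alone least often on either side with either filter.

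**Figure D3:**
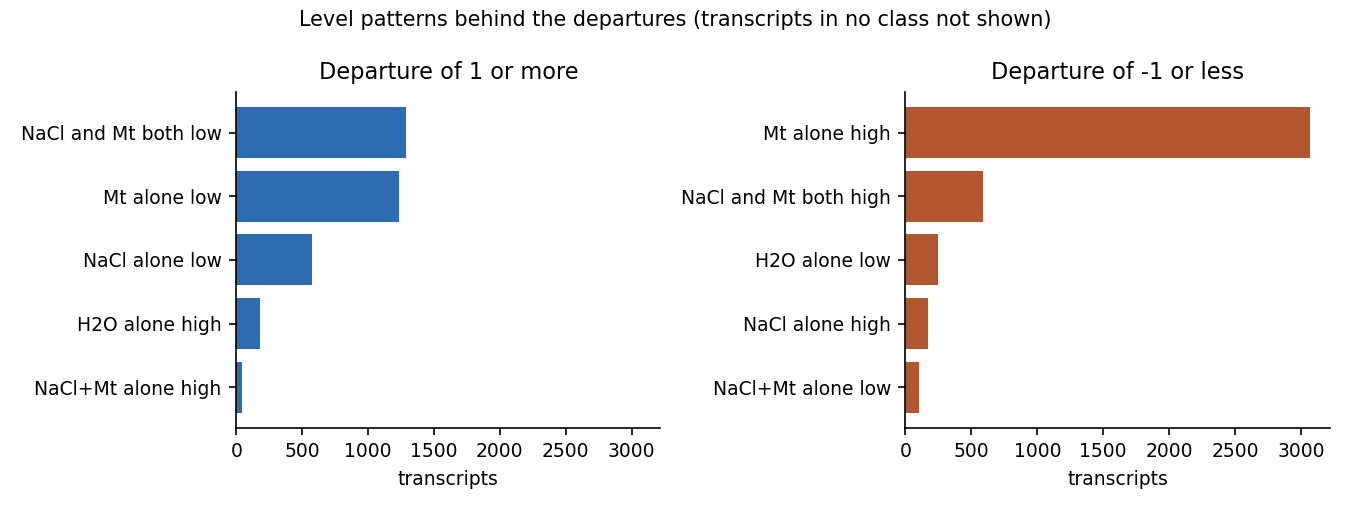
Number of transcripts (horizontal axis) in each shape of levels, for departures of 1 or more on the left and of -1 or less on the right, without those of no clear shape. Low levels in both single treatments (1289) and in Mt alone (1234) were the commonest on the left, and a high level in Mt alone (3065) on the right, while NaCl+Mt standing alone was the rarest in both panels (42 and 102). Of the 3065, 1095 passed the read filter in Mt only.

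Some transcripts went in opposite directions with melatonin when salt was present and when it was not, by at least 2-fold each way. By this measure 988 (2.25% of those kept) were higher in Mt than in H2O and lower in NaCl+Mt than in NaCl. A further 1686 (3.84%) were lower in Mt than in H2O and higher in NaCl+Mt than in NaCl. Addition was also counted among loci that both agents changed. Of 16005 loci with a mean of 10 RPKM or more, 1640 differed at least 2-fold from H2O in both single treatments. In 1408 of these the single effects had the same direction, and 6 of the 1408 departed by less than 1. In the 232 loci where the single effects ran in opposite directions, and so partly cancel in their sum, 107 departed by less than 1. Where the directions agree, a locus with NaCl+Mt within 2-fold of water must depart by more than 1. The difference between these counts is therefore set in part by the choice of loci, and no conclusion on addition is drawn from it. The single effects share the H2O library, so that an unusual level there would give both effects the same direction and a departure at once. Of the 10 highest departures among these abundant loci, which lay between 8.91 and 10.73, 9 belonged to loci that were low in both single treatments.

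The transcript with the highest departure, Glyma18g44320.1, had 54.4 RPKM in NaCl+Mt and 0.226 RPKM in NaCl, and 5.09 RPKM in Mt and 52.5 RPKM in H2O. Its departure was 10.73 ± 0.40. Glyma19g39920.1 had 195 RPKM in NaCl+Mt and 1.05 RPKM in NaCl, and 19.5 RPKM in Mt and 139 RPKM in H2O, a departure of 10.23 ± 0.46. In each, salt alone brought the level down more than melatonin alone did, and the combination gave as much as water. The most abundant transcripts with a positive departure had another shape, since in all 5 of them Mt alone was low. The lowest departure among abundant loci was that of Glyma14g05650.1, with 0.820 RPKM in NaCl+Mt and 11.9 RPKM in NaCl, and 288 RPKM in Mt and 1.32 RPKM in H2O (-11.36 ± 0.55). No name is paired with these 3 loci in the sources used here.

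The loci of the study's own annotation, 211 in 11 processes, were then taken 1 by 1, each through its transcript with the highest mean RPKM. A departure of 1 or more was found for 33 loci and of -1 or less for 166, with a median of -2.49, where 19.6% and 24.7% of all 35148 loci had such values. These lists were drawn up on the same libraries, from differences between Mt and H2O and also from the salted libraries, and all of these enter the departure. Their direction is therefore no independent evidence. NaCl+Mt lay within 2-fold of H2O at 157 of the 211 loci, below the share of 88.9% among all loci, and Mt did so at 14 and NaCl at 107, where 63.7% and 78.8% of all loci did.

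**Figure D4:**
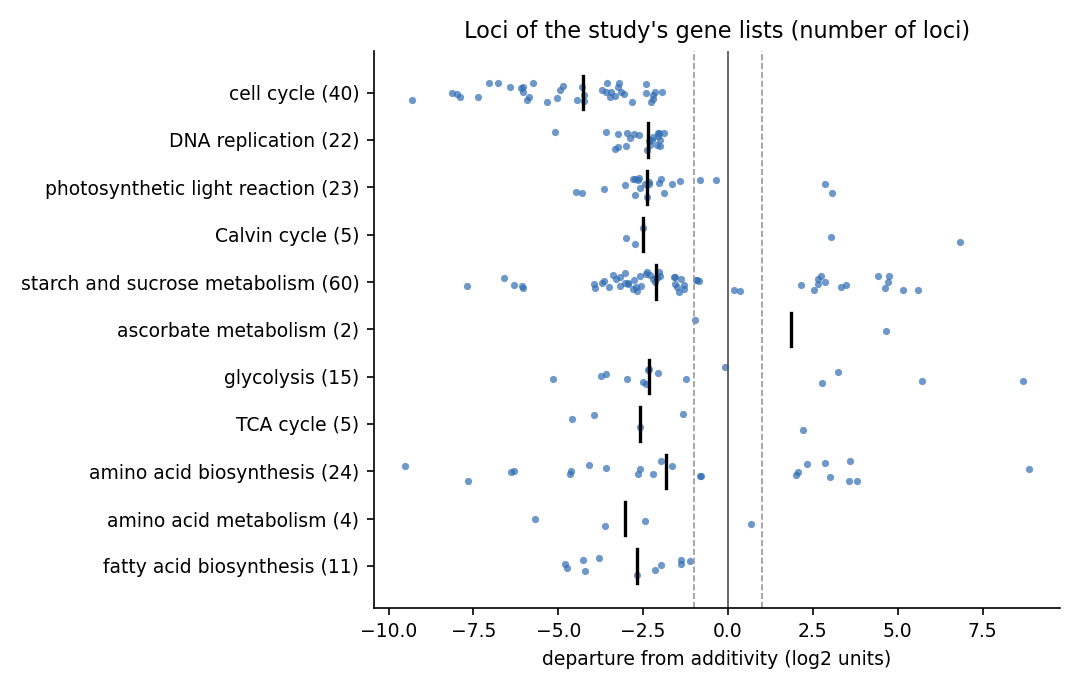
Departure in log2 units (horizontal axis) of each locus, as a point, in the 11 lists of the study (rows, number of loci in parentheses), with the median as a black bar and dashed lines at -1 and 1. All 40 cell cycle and all 22 DNA replication loci lie below -1, whereas starch and sucrose metabolism, glycolysis and amino acid biosynthesis hold 14, 4 and 9 loci above 1. Some of the cell cycle and DNA replication loci passed the read filter in Mt only.

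Genes of cell division were high in the Mt library and stayed low when salt was added. All 40 cell cycle loci had a departure of -1 or less, with a median of -4.28 and a range of -9.30 to -1.95. The median log2 difference from H2O was 0.03 in NaCl+Mt, 0.63 in NaCl and 3.88 in Mt, and in 22 loci Mt alone was high. NaCl+Mt was within 2-fold of H2O at 38 of the 40, close to the share of all loci given above. These loci were weakly expressed, with a median of 1.77 RPKM over the libraries, and 11 had 3 reads or fewer in some library. With such counts raised to 3 the median departure was -3.98, and with 1 in place of 0.1 added to RPKM it was -2.24.

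Cyclins B, which drive entry into mitosis, showed this at 9 loci with departures of -8.12 to -5.74. The most abundant of them, Glyma14g04160, had 0.943 RPKM in NaCl+Mt and 1.63 RPKM in NaCl, and 31.2 RPKM in Mt and 0.694 RPKM in H2O, a departure of -6.03 ± 0.38. The level was thus far above water with melatonin alone and within 2-fold of water where salt accompanied it. Cyclin A, which acts in S phase and in early mitosis, held the lowest value of the list. Glyma06g12220 had 6 reads in NaCl+Mt and 58 in NaCl, and 518 in Mt and 3 in H2O, so that its departure of -9.30 ± 0.57 rests on few reads in water. The next of the cyclin A loci, Glyma04g42540, had 0 reads in NaCl+Mt and 8 in NaCl, and 274 in Mt and 2 in H2O, a departure of at most -6.41 with the low counts at the floor of 3 reads.

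The spindle checkpoint holds chromosome separation until every chromosome is attached. Its members differed in size and shape. BUB3 (-2.22 ± 0.27), the MAD2 loci (-3.21 ± 0.84 and -3.47 ± 0.73) and TTK (-4.45 ± 0.47) were high in Mt alone, whereas the main BUBR1 locus was high in both single treatments. BUBR1 (Glyma07g20070) had 0.0937 RPKM in NaCl+Mt and 0.900 RPKM in NaCl, and 12.3 RPKM in Mt and 0.151 RPKM in H2O. Its departure of -7.99 ± 0.61 rests on 4 reads in NaCl+Mt and 4 in H2O. In its second locus, Glyma20g00930, no read was found in NaCl+Mt or H2O, 2 in NaCl and 49 in Mt. The departure there is not bounded by the counts, although Mt alone was high. CDH, the CDC20-like activator of the anaphase-promoting complex, had departures of -5.33 ± 0.45 at Glyma11g34060 and of -6.41 ± 0.56 at Glyma18g04240, the second of which rests on 2 reads in H2O. The general regulatory factor GRF (Glyma13g34580), the most abundant locus of the list, had 18.01 RPKM in NaCl+Mt and 13.5 RPKM in NaCl, and 36.0 RPKM in Mt and 6.05 RPKM in H2O. Its departure was -2.14 ± 0.19. ORC1,4, the complex that marks replication origins, had the smallest departure of the list at Glyma15g03900, -1.95 ± 0.37.

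The machinery of DNA replication varied less. Its 22 loci all had departures of -1 or less, between -5.10 and -1.90 (median -2.36), and 17 of them were high in Mt alone. With 0.01 added in place of 0.1, 21 did, because RFA3 at Glyma07g32130, with 0 reads in NaCl and 1 in H2O, came to -0.20. The 12 loci of the MCM complex, the helicase that opens the double strand, lay between -3.25 and -1.90. In Glyma17g03920, the uppermost of these, 2.03 RPKM was found in NaCl+Mt and 1.59 RPKM in NaCl, and 11.3 RPKM in Mt and 2.32 RPKM in H2O (-1.90 ± 0.20). RFA3, a subunit of the protein that covers single-stranded DNA, was the most abundant at Glyma20g24590, with 4.13 RPKM in NaCl+Mt and 3.35 RPKM in NaCl, and 25.2 RPKM in Mt and 3.81 RPKM in H2O (-2.40 ± 0.43). The 3 libraries other than Mt were within 2-fold of each other. RFA1 (Glyma17g08660) had the lowest value, -5.10 ± 0.47, with 10 reads in NaCl+Mt and 29 in NaCl, and 241 in Mt and 14 in H2O.

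The light reaction list had another shape, with medians above water in all 3 treatments, although several of its loci were not. In the light reaction list, 19 of 23 loci had a departure of -1 or less and 2 had one of 1 or more, with a median of -2.40. The PetF locus Glyma11g00800, 1 of the 19, had a single read in H2O and came to -0.92 with low counts raised to 3 and to -0.88 with the deposited RPKM. The median log2 difference from H2O was 1.08 in NaCl+Mt, 1.18 in NaCl and 2.24 in Mt. Hence each agent alone gave more of these transcripts, and the median with both was no higher than with salt alone. PsaF of photosystem I (Glyma05g00620) had 899.8 RPKM in NaCl+Mt and 1198 RPKM in NaCl, and 1752 RPKM in Mt and 368 RPKM in H2O, with a departure of -2.66 ± 0.025. PsbP of the oxygen-evolving complex (Glyma08g41660) had 231 RPKM in NaCl+Mt and 310.4 RPKM in NaCl, and 508 RPKM in Mt and 102 RPKM in H2O (-2.74 ± 0.044). For PsaH (Glyma13g43370) the levels were 114 RPKM in NaCl+Mt and 212 RPKM in NaCl, and 351 RPKM in Mt and 33.2 RPKM in H2O (-4.29 ± 0.095). In all 3, the single treatments were above the combination and water was lowest.

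Ferredoxin, which passes electrons on from photosystem I and is listed as PetF, was split between its 5 loci. Glyma10g42540 had 24.5 RPKM in NaCl+Mt and 4.62 RPKM in NaCl, and 17.5 RPKM in Mt and 28.0 RPKM in H2O. Its departure was 3.06 ± 0.23, and that of Glyma20g24500, which had the same order of levels, was 2.86 ± 0.18. In both, NaCl alone was low. Glyma12g29100 had 14.4 RPKM in NaCl+Mt and 15.1 RPKM in NaCl, and 112 RPKM in Mt and 5.11 RPKM in H2O (-4.49 ± 0.24). Its neighbour in the locus numbering, Glyma12g29090, had 56.5 RPKM in NaCl+Mt and 6.01 RPKM in NaCl, and 138 RPKM in Mt and 11.6 RPKM in H2O. This locus came close to additivity, with a departure of -0.36 ± 0.22, because the log2 effect of melatonin was 3.21 with salt and 3.57 without. Reads of such near relatives may have been shared between them in the counting, so differences within the family are uncertain.

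The Calvin cycle was also divided. The small subunit of Rubisco, rbcS (Glyma13g07610), had 3530 RPKM in NaCl+Mt and 4429 RPKM in NaCl, and 6992 RPKM in Mt and 1300 RPKM in H2O, with a departure of -2.75 ± 0.015. Phosphoglycerate kinase (PGK, -2.49 ± 0.043) and triosephosphate isomerase (TIM, -3.01 ± 0.11) had the same order of levels. The glyceraldehyde-3-phosphate dehydrogenases did not. GAPC1 (Glyma11g37360) had 58.9 RPKM in NaCl+Mt and 3.996 RPKM in NaCl, and 8.33 RPKM in Mt and 66.3 RPKM in H2O, a departure of 6.83 ± 0.17. Relative to water its log2 level was -4.02 with salt and -2.98 with melatonin, but -0.17 with both. GAPCP-2 (Glyma03g22790) had 50.4 RPKM in NaCl+Mt and 7.74 RPKM in NaCl, and 42.5 RPKM in Mt and 54.0 RPKM in H2O (3.03 ± 0.11). Here salt alone lowered the level.

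**Figure D5:**
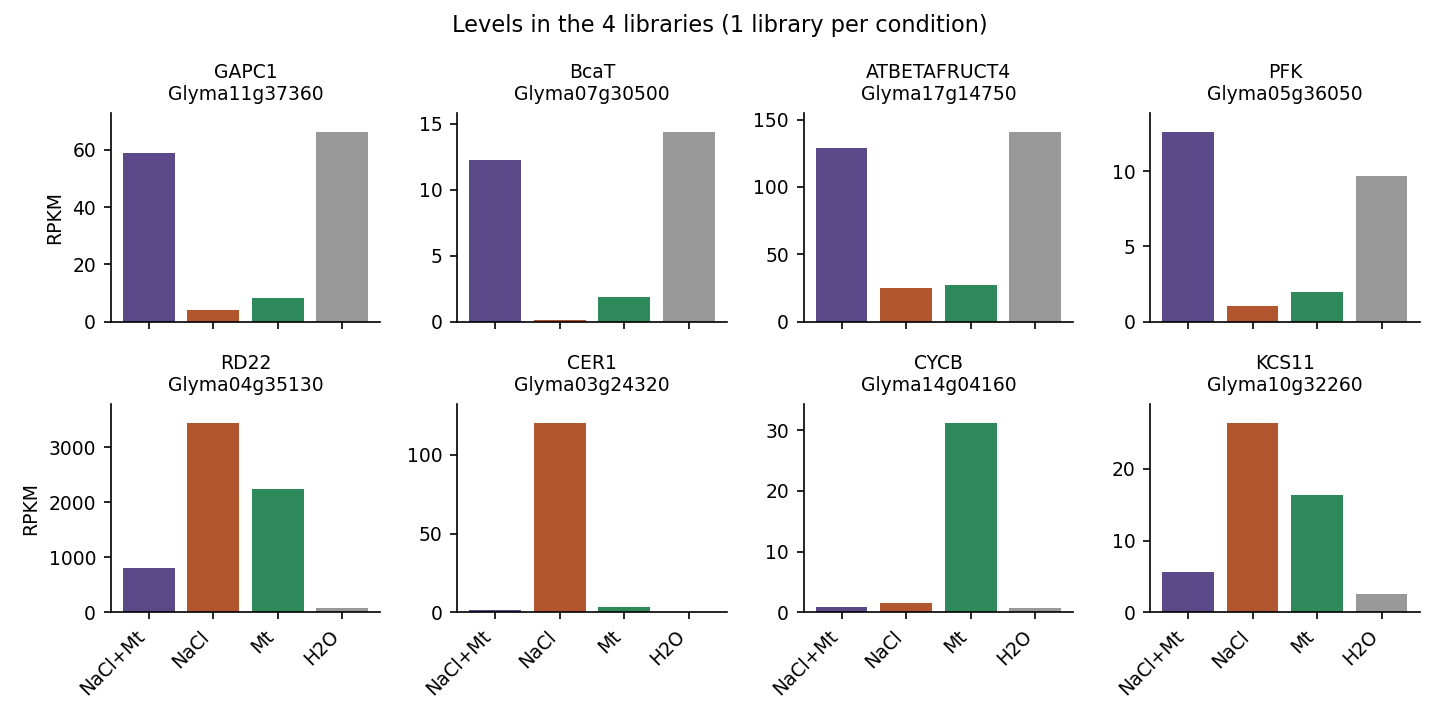
Level in RPKM (vertical axis from 0, a scale for each panel) of 8 genes in NaCl+Mt, NaCl, Mt and H2O, with 1 library per condition and so no error bars. In the upper row GAPC1, BcaT, ATBETAFRUCT4 and PFK are low in both single treatments and near water in the combination, and in the lower row RD22, CER1, cyclin B (CYCB) and KCS11 are highest in NaCl or in Mt.

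Starch, sucrose and cell wall metabolism contained the most loci and both directions. Of 60 loci, 41 had a departure of -1 or less and 14 one of 1 or more (median -2.11). Invertases, which split sucrose, and the loci listed as UGT were among the positive ones, UGT with 5.15 ± 0.63, 2.66 ± 0.23 and 2.64 ± 0.50 at its 3 loci, the last of which (Glyma01g02740) came to 0.97 with 1 added to RPKM. The vacuolar enzyme ATBETAFRUCT4 (Glyma17g14750) had 129 RPKM in NaCl+Mt and 25.1 RPKM in NaCl, and 27.4 RPKM in Mt and 141 RPKM in H2O (4.71 ± 0.061). The cell wall invertases ATBFRUCT1 had departures of 5.60 ± 0.41 (Glyma15g02850) and 4.63 ± 0.28 (Glyma13g42530). These 3 invertases were low in both single treatments. The other ATBETAFRUCT4 locus, Glyma01g41990, was weakly expressed and differed, with 13 reads in NaCl+Mt and 9 in NaCl, and 98 in Mt and 10 in H2O (-2.68 ± 0.52).

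Sucrose synthase (SUS), the other route of sucrose breakdown, had a departure of -1 or less at all 6 loci, but at 3 of them this rested on 2 reads or fewer in NaCl. Its main locus, Glyma09g08550, had 9.10 RPKM in NaCl+Mt and 8.84 RPKM in NaCl, and 31.5 RPKM in Mt and 6.96 RPKM in H2O (-2.12 ± 0.11). Only Mt was high. At Glyma02g40740 the value was set by a single read in NaCl, and the departure of -1.57 became 0.023 when 0.01 was added in place of 0.1, and that of Glyma09g29710, with 2 reads in NaCl, became -0.053. Glyma11g33240 had 0 reads in NaCl and in H2O, so its departure is not bounded by its counts. The GAUT family, galacturonosyltransferases of pectin synthesis, was negative at all 7 loci, between -3.31 and -1.29. Among the pectinesterases listed as PecEST, 3 of 4 loci were at -1 or less, and Glyma05g35930, with no read in NaCl, changed its sign from -1.51 to 1.06 with the smaller addition. Another of the 3, Glyma08g03700, went from -2.01 to -0.79 with the deposited RPKM.

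The beta-glucosidases (BGLU) ran in both directions, with 7 of 12 loci at -1 or less and 4 at 1 or more. Glyma15g42590 had 4.01 RPKM in NaCl+Mt and 20.03 RPKM in NaCl, and 161 RPKM in Mt and 3.72 RPKM in H2O (-7.69 ± 0.18), the lowest value of the list. Glyma15g03620, on the other side, had 342 reads in NaCl+Mt and 2 in NaCl, and 777 in Mt and 415 in H2O (4.74 ± 0.39). It was lost with salt alone and present in the other 3 libraries. Phosphoglucomutase (PGM, Glyma10g38590), the most abundant locus of the list, was highest in NaCl, with 129 RPKM in NaCl+Mt and 385 RPKM in NaCl, and 53.6 RPKM in Mt and 64.6 RPKM in H2O. In contrast to most loci of the list, melatonin alone left it within 2-fold of water, and its departure of -1.31 ± 0.044 came from the salted libraries.

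In glycolysis, 10 of 15 loci had a departure of -1 or less and 4 had one of 1 or more. 6-Phosphofructokinase (PFK), a control step of the pathway, had 12.6 RPKM in NaCl+Mt and 1.06 RPKM in NaCl, and 1.957 RPKM in Mt and 9.68 RPKM in H2O (5.70 ± 0.29). Phosphoglycerate mutase (PGAM, 3.24 ± 0.28) and enolase (ENO, 2.76 ± 0.18) were also positive, PGAM through a low level in NaCl alone. Aldolase (ALDO, Glyma12g04150), the most abundant, had 223 RPKM in NaCl+Mt and 549 RPKM in NaCl, and 251 RPKM in Mt and 116 RPKM in H2O (-2.42 ± 0.036). It was thus a gene raised by each agent alone, with the combination below both.

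The enzymes of alcohol metabolism in this list have to be read beside the ethanol of the melatonin stock, whose part was not tested. One locus of the zinc-binding GroES-like dehydrogenases, Glyma01g28850, had 21.5 RPKM in NaCl+Mt and 0.260 RPKM in NaCl, and 4.38 RPKM in Mt and 31.0 RPKM in H2O (8.70 ± 0.38). The other, Glyma07g18130, had 1.84 RPKM in NaCl+Mt and 6.85 RPKM in NaCl, and 5.95 RPKM in Mt and 0.508 RPKM in H2O (-5.15 ± 0.38). The loci were mirror images of each other, low and high in both single treatments. Alcohol dehydrogenase ADH1 at Glyma04g41990 was additive within its counting error, with 11.2 RPKM in NaCl+Mt and 46.8 RPKM in NaCl, and 5.25 RPKM in Mt and 20.7 RPKM in H2O (-0.09 ± 0.15). There melatonin lowered the level by close to the same factor on either background. The second locus, Glyma14g24860, was high in NaCl alone (-3.59 ± 0.49).

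Of the 5 TCA cycle loci, 4 were at -1 or less. Fumarase (FUM2), the most abundant, had 3.58 RPKM in NaCl+Mt and 5.65 RPKM in NaCl, and 46.8 RPKM in Mt and 4.65 RPKM in H2O (-3.95 ± 0.19). The subunits of ATP-citrate lyase, which supplies acetyl-CoA for lipids, ran in different directions. ACLB was high in both single treatments (-4.60 ± 0.41). ACLA had departures of 2.20 ± 0.19 at Glyma03g38810, where Mt alone was low, and of -1.34 ± 0.18 at Glyma15g42140. In ascorbate metabolism, VTC4, a phosphatase on the way to ascorbate, had 3.03 RPKM in NaCl+Mt and 0.170 RPKM in NaCl, and 3.14 RPKM in Mt and 6.98 RPKM in H2O (4.66 ± 0.53). Ascorbate peroxidase APX4 was closer to additivity (-0.97 ± 0.28), because melatonin brought more of it both with and without salt. Its levels were 11.3 RPKM in NaCl+Mt and 1.29 RPKM in NaCl, and 52.9 RPKM in Mt and 3.22 RPKM in H2O. The departure of APX4 was -1 or less with 1 added to RPKM, with median-of-ratios scaling and with the deposited RPKM.

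Amino acid biosynthesis was the most evenly split of the larger lists, with 9 of 24 loci at 1 or more and 13 at -1 or less. The branched-chain aminotransferase (BcaT) had 322 reads in NaCl+Mt and 2 in NaCl, and 31 in Mt and 234 in H2O, which gave a departure of 8.85 ± 0.57. Some loci of cysteine synthesis, chosen after their values were seen, were positive. The more abundant cysteine synthase (cysK, Glyma19g43150) had 274 RPKM in NaCl+Mt and 131 RPKM in NaCl, and 61.2 RPKM in Mt and 236 RPKM in H2O (3.005 ± 0.051). Its second locus (2.86 ± 0.15), the serine acetyltransferase cysE (2.07 ± 0.13) and CYSC1 (3.57 ± 0.085) had the same sign, and in all of these the levels in NaCl+Mt and H2O were above that in Mt. Pyrroline-5-carboxylate synthase (P5CS2), which makes proline, was negative at its 3 loci, between -4.64 and -2.60.

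At its 2 listed loci, ASMT, the enzyme that makes melatonin, was found almost only in the library given melatonin without salt. Both loci passed the read filter in Mt only and were listed from these same libraries, which favours such levels. Glyma06g44010 had 10 reads in NaCl+Mt and 4 in NaCl, and 786 in Mt and 0 in H2O, and Glyma18g50470 had 2 and 3, and 159 and 0. With water set to the floor of 3 reads, the departure of Glyma06g44010 was at most -6.52, and that of the other is not bounded by its counts. A serine hydroxymethyltransferase (SHMT, Glyma09g33480) was alike, with 6 reads in NaCl+Mt and 4 in NaCl, and 2885 in Mt and 0 in H2O, a departure of at most -8.63 at the same floor. Among the 4 loci of amino acid metabolism, 3 spermidine synthases (SPDS) lay between -5.68 and -2.45. The agmatinase speB differed from them, since melatonin gave more of it on either background and its departure was 0.69 ± 0.28.

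All 11 loci of fatty acid biosynthesis had a departure of -1 or less, between -4.81 and -1.11, with a median of -2.69 that was -1.59 with 1 added to RPKM. The elongases KCS6 and KCS11, which make the long chains of surface wax, were high in both single treatments. KCS11 (Glyma10g32260) had 5.61 RPKM in NaCl+Mt and 26.4 RPKM in NaCl, and 16.3 RPKM in Mt and 2.61 RPKM in H2O (-4.81 ± 0.18). The desaturases FAD8 were among the loci that departed least, with -2.17 to -1.11 at 4 loci. Their most abundant locus, Glyma03g07570, had 27.2 RPKM in NaCl+Mt and 14.3 RPKM in NaCl, and 58.7 RPKM in Mt and 11.8 RPKM in H2O (-1.38 ± 0.11). Melatonin thus gave higher FAD8 levels with and without salt, and less so with salt.

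The study also annotated 28 transcripts as higher than water in each of the 3 treatments. All 28 had a departure of -1 or less, between -10.58 and -2.61 with a median of -4.79. A transcript raised by both agents alone is bound to fall short of the sum unless the combination multiplies the single effects, so the sign was to some degree set by the choice. The level was highest in NaCl for 14 of them and in Mt for 14, and in NaCl+Mt for 0. This 0 goes with the negative sign, since NaCl+Mt was highest in only 27 (0.27%) of all transcripts at -1 or less. The transcript annotated as RD22, the name of a dehydration-responsive gene of Arabidopsis, was among the most abundant. It had 810.3 RPKM in NaCl+Mt and 3443 RPKM in NaCl, and 2236 RPKM in Mt and 86.5 RPKM in H2O. Its departure was -6.78 ± 0.027. The putative CER1 (Glyma03g24320.1), whose relative in Arabidopsis makes the alkanes of leaf wax, was highest in NaCl, with 106 reads in NaCl+Mt against 7010 in NaCl, and with 166 in Mt against 4 in H2O (-10.58 ± 0.38).

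Further members of this set were highest with salt and reduced where melatonin accompanied it. A protease inhibitor/lipid transfer family transcript, Glyma07g16770.1, had 24.9 RPKM in NaCl+Mt and 173 RPKM in NaCl, and 13.2 RPKM in Mt and 1.59 RPKM in H2O (-5.77 ± 0.41). The laccase IRX12, of a family that polymerizes lignin, had 65 reads in NaCl+Mt and 606 in NaCl, and 32 in Mt and 0 in H2O, a departure of at most -5.81 with water at the floor. Others were highest with melatonin alone. The methyltransferase CHLM of chlorophyll synthesis had 17.5 RPKM in NaCl+Mt and 16.0 RPKM in NaCl, and 45.6 RPKM in Mt and 1.70 RPKM in H2O (-4.54 ± 0.24). The arabinogalactan protein AGP17 had 24.2 RPKM in NaCl+Mt and 15.04 RPKM in NaCl, and 127 RPKM in Mt and 1.33 RPKM in H2O (-5.79 ± 0.30). In both, NaCl+Mt and NaCl were within 2-fold of each other. The light-harvesting protein LHCB4.3 had 68.1 RPKM in NaCl+Mt and 92.5 RPKM in NaCl, and 56.3 RPKM in Mt and 11.3 RPKM in H2O (-2.75 ± 0.11), so that the 3 treatments were within 2-fold of each other and water stood apart.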

How the data were processed

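Leaves of soybean in 4 conditions were profiled by RNA-seq on an Illumina instrument, with 1 library for each. The authors trimmed the reads, mapped them to the soybean genome with BWA 0.7.4 and deposited, for each transcript model, a length, the read counts and an RPKM value. The genome build and the counting tool were not given in the sources used here. The deposited RPKM values were divided by the total of mapped reads, and in each library 4628 to 5430 transcripts that had reads carried a deposited RPKM of 0. RPKM was therefore recomputed from the deposited counts, the length and the sum of each count column. The lengths were multiples of 3 for 95.8% of transcripts, so they are mainly coding lengths.

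The departure was computed with Python 3.11.15, numpy 2.4.6 and pandas 2.3.3 from RPKM + 0.1 for transcripts with 20 or more reads in at least 1 library, and figures with matplotlib 3.10.9. Counting SEs came from the 4 read counts, and the calculation was tested on simulated data. Named genes were the locus of highest mean RPKM and those of highest and lowest departure in each list, some of the genes the study names, and the extremes among loci of 10 RPKM or more. Others that the study names, HK (-0.86) and PsbO (-2.62) among them, are not described. Further loci of a named family, CDH, TTK, MAD2, BUB3, UGT, GAUT, PecEST, ATBETAFRUCT4, ENO, cysE, CYSC1, P5CS2, KCS6 and the members given of the 28 annotated transcripts were chosen after their values were seen. The transcripts, the lists and the rule were chosen with earlier results of these data known. Symbols are those of the study's annotation table. The reference table of Glycine_max_v4.0 held 0 rows with a locus name of the kind used in the files, so groups by product name, markers of other organs and promoter motifs, although planned, were not analysed here. Transcripts of 1 locus may share reads. Reads that fit close paralogs may be missing, since the paper describes counts of uniquely mapped reads.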

Additional observations from a re-analysis of the deposited data

Results flagged for a closer look

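Results are given here where melatonin moved a level in opposite directions with and without salt. With 1 library per condition, the difference between the 2 effects was not tested. Over all transcripts kept, with at least 2-fold each way, 988 (2.25%) were higher in Mt than in H2O and lower in NaCl+Mt than in NaCl. The reverse, lower in Mt than in H2O and higher in NaCl+Mt than in NaCl, held for 1686 (3.84%). Among the 211 loci of the lists and the 28 annotated transcripts, 20 moved by at least 4-fold each way. The share of all transcripts at 4-fold was not computed. Both sets were chosen on these same libraries, so neither the number nor its split by direction is independent evidence. The values below are their departures.

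Of these, 6 were lower with melatonin alone and higher with melatonin under salt. They were BcaT (8.85), the GroES-like locus Glyma01g28850 (8.70), GAPC1 (6.83), PFK (5.70), the cell wall invertase ATBFRUCT1 at Glyma15g02850 (5.60) and the vacuolar invertase ATBETAFRUCT4 at Glyma17g14750 (4.71).

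The other 14 were higher with melatonin alone and lower with melatonin under salt. In the cell cycle they were cyclin A at Glyma06g12220 (-9.30), cyclin B at Glyma02g44570 (-8.12) and BUBR1 at Glyma07g20070 (-7.99). In metabolism they were the beta-glucosidase Glyma15g42590 (-7.69), KCS11 at Glyma10g32260 (-4.81) and ACLB (-4.60). Among the annotated transcripts they were the putative CER1 (-10.58), ATMAP70-5, a microtubule-associated protein (-8.38), the lipid transfer family transcripts Glyma18g41320.1 (-7.53) and Glyma07g16770.1 (-5.77), RD22 (-6.78), IRX12 (-6.64), CYP83B1 (-4.64) and a SEC14 family transcript (-4.50). The value of IRX12 depends on the amount added to RPKM, since it had 0 reads in H2O, and is at most -5.81 with water at the floor of 3 reads. Those of CYP83B1, with 1 read in H2O, BcaT, with 2 in NaCl, and cyclin A and Glyma18g41320.1, with 3 in H2O each, rest on few reads. So do those of BUBR1, with 4 reads in NaCl+Mt and 4 in H2O, and of the putative CER1, with 4 in H2O. With 1 added to RPKM, the value of BUBR1 came to -4.32.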

How the results depend on the processing

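No departure could be checked against a replicate, and the counting error is the only error known. No paired analysis was possible because each condition had 1 library, and for the same reason no replicate could be left out. A threshold of 2 in place of 1 gave 3832 positive and 5086 negative departures. With 20 or more reads in all 4 libraries, a filter chosen after the data were seen, 5973 were negative. The other alternatives kept both counts within 1.5 times, although with 100 or more reads in some library the positive ones (6972) came to exceed the negative ones (6888). Median-of-ratios scaling kept 8054 of the 8686 positive and 9952 of the 9953 negative transcripts. The median departure lay near 0 on either side of it, at -0.0015 with 1 added to RPKM, -0.069 with median-of-ratios scaling, -0.028 with no filter, 0.072 with 100 reads, -0.034 with 1 transcript per locus, -0.027 with the deposited RPKM and 0.079 with 20 reads in all 4 libraries. With 1 added, the cell cycle median was -2.24 and the DNA replication median -1.89, because the addition is large beside their levels. With 0.01 added, 2 named loci changed sign, SUS at Glyma02g40740 (0.023) and PecEST at Glyma05g35930 (1.06), both with 1 read or none in NaCl. No other named value of at least 1 in size changed its sign with another amount added, another scaling, the deposited RPKM or counts raised to 3, but of 242 named values 125 moved beyond their counting error with 1 added, 42 with the deposited RPKM and 36 with 0.01 added, and 13 of the 230 of at least 1 in size fell below it under some of these. Departures of genes with few reads in a library depend most on the amount added.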
